A study of Rattus norvegicus with 18 samples.

Results

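Ketone body synthesis in rat hepatocytes was followed through the enzymes Acat1 and Bdh1 in cells cultured with EMD. Members were the probe sets whose platform annotation gives a single symbol, Bdh1 or Acat1. This gave 2 genes of the 14217 with such a probe set, and 4 probe sets of the 31042 tested. For each gene the probe set with the higher mean over all arrays is given first. Hepatocytes of Wistar rats were left to attach for 24 h and then kept in a medium with insulin and hydrocortisone. That medium held 30 µM EMD, 100 µM EMD or the vehicle alone, 0.1% DMSO, for 24 or 72 h. RNA was read on 18 Affymetrix arrays, 3 for each of the 6 combinations of dose and time. EMD is a code-named compound that the study describes as an agonist of both PPARα and PPARγ, nuclear receptors that bind fatty acids. Age was not given, and the labels do not say which cultures share an animal. Values are log2 expression estimates, so a difference of 1 is a doubling.

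Ketone bodies are made in the mitochondria of hepatocytes from acetyl-CoA, the product of fatty acid β-oxidation, and are burned by other organs during fasting. Acat1, acetoacetyl-CoA thiolase, joins a pair of acetyl-CoA molecules to acetoacetyl-CoA in a reversible reaction. Bdh1 reduces acetoacetate, a ketone body, to 3-hydroxybutyrate. Acat1 also carries out the last cleavage of isoleucine breakdown. Both enzymes work in either direction, so a transcript level says nothing of the direction of flux.

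Bdh1 was read by probe sets 1368387_at and 1374765_at (gene ID 117099). The gene lies on the minus strand of chromosome 11 from 82806125 to 82848133 in GRCr8. Acat1 was read by probe sets 1367763_at and 1383416_at (gene ID 25014), and lies on the minus strand of chromosome 8 from 62876003 to 62905080. The 250 bases before each gene's start are shown from RefSeq (GRCr8, minus strand, 5′ to 3′), as the regions in which sites of the EMD receptors were searched for. Bdh1 covers chr11:82842637-82842886 and Acat1 covers chr8:62905043-62905292. Capitals mark the GC box (GGGCGG, here on the other strand) and the CCAAT box on either strand.
Bdh1: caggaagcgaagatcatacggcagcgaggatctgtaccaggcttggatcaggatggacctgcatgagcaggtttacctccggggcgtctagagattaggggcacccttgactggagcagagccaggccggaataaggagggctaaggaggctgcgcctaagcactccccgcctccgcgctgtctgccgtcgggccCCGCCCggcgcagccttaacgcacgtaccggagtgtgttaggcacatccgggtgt
Acat1: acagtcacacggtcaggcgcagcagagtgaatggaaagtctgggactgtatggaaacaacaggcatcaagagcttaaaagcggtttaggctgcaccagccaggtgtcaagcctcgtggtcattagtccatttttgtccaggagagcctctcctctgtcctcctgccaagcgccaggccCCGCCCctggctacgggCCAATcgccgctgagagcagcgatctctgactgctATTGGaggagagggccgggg
The start used for Bdh1 lay 5497 bases inside the annotated span of the gene, and that for Acat1 lay 38 bases inside, so other starts may exist upstream. The Bdh1 window thus lay wholly within the annotated span of its gene, as did the last 38 bases of the Acat1 window. Each sequence held 1 GC box, whose first base stood 55 bases before the start in Bdh1 and 72 in Acat1. Of 33469 promoters of this length, 30.5% held one. Acat1 had 2 CCAAT boxes, 55 bases before the start on the strand shown and 20 bases before it on the other. Bdh1 had 0, and 34.0% of promoters held one. The direct repeat AGGTCANAGGTCA, the form of site that PPARs bind with their partner RXR, had 0 matches in either sequence on both strands and was found in 0.0508% of promoters. Its repeated unit AGGTCA also had 0 matches, against 14.1% of promoters. These letter matches describe the windows and say nothing of binding.

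The arrays resembled each other, with correlations of at least 0.9612 between any 2 arrays and of 0.9875 to 0.9958 within a group. The hepatocyte markers, 10 of 10, stood above the array median in every group, and their mean log2 level lay between 11.55 and 12.40. Marker lists of stellate cells and endothelium had means between 4.104 and 4.352, below the array medians of 5.042 to 5.110. Those of macrophages and bile duct cells had means between 4.315 and 5.539, on both sides of the medians. Between 1 and 4 markers of each of these lists stood above the median. In a culture, fewer hepatocytes and less RNA of a gene per hepatocyte cannot be told apart.

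Acat1 rose strongly at both doses and both times. In DMSO at 24 h its brighter probe set gave log2 values of 9.22, 9.07 and 9.23. With 30 µM EMD at 24 h the values were 12.01, 12.22 and 12.23, and with 100 µM they were 11.82, 12 and 12.06. All 6 treated arrays stood more than 2 log2 units above the DMSO arrays. The rise was 2.98 ± 0.13 log2 units (difference ± SE, n = 3 per group) or 7.91-fold with 30 µM, with an adjusted p of 5.5e-11 by limma over all probe sets. With 100 µM it was 2.79 ± 0.13 or 6.90-fold (limma, adjusted p = 1.4e-10). At this time 3.35% of all probe sets were called higher with 30 µM and 3.06% with 100 µM, and 9.01% and 9.23% stood above DMSO without overlap. Ordered from the largest rise to the largest fall, Acat1 ranked 47 and 58 of 31042.

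At 72 h the DMSO arrays gave Acat1 log2 values of 9.83, 10.15 and 10.06. With 30 µM EMD they were 13.01, 13.15 and 13.13, at a percentile of 99.6 or above in each array, and with 100 µM they were 12.73, 12.19 and 12.31. Again no treated array overlapped the DMSO arrays. The rise was 3.08 ± 0.13 log2 units or 8.47-fold with 30 µM (limma, adjusted p = 5.2e-11). It was 2.39 ± 0.13 or 5.25-fold with 100 µM (limma, adjusted p = 1.4e-09). Of all probe sets, 7.88% were called higher with 30 µM and 7.42% with 100 µM at 72 h, and 15.7% and 15.2% stood above DMSO without overlap. The dimmer probe set rose by 3.60, 3.33, 3.88 and 2.86 log2 units in the same order of comparisons, larger than the brighter one in each. Its DMSO values at 24 h, 5.52, 5.86 and 5.39, were near the array medians.

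Bdh1 rose with 30 µM EMD at 72 h, and at 24 h its call depended on the replicate block. With 100 µM no change passed the test at either time. In DMSO at 24 h its brighter probe set gave log2 values of 8.81, 8.43 and 8.01. With 30 µM EMD they were 9.41, 9.24 and 9.07, and with 100 µM they were 8.80, 8.02 and 8.13. The 30 µM arrays stood above every DMSO array, while the 100 µM arrays overlapped them. The difference at 30 µM was 0.82 ± 0.27 log2 units (SE, n = 3 per group), and it did not pass the threshold (limma, adjusted p = 0.095). With the replicate number as a block it passed (adjusted p = 0.015), and arrays of the same number differed by 0.59, 0.81 and 1.06, all in 1 direction. At 24 h 9.01% of all probe sets were higher with 30 µM without overlap. The difference at 100 µM was -0.10 ± 0.27 (limma, adjusted p = 0.92), with a 95% interval from -0.66 to 0.46.

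At 72 h the DMSO arrays gave Bdh1 log2 values of 8.02, 8.09 and 7.61. With 30 µM EMD they were 8.89, 9.07 and 9.17, and with 100 µM they were 8.37, 7.50 and 7.19. Every 30 µM array stood above every DMSO array, and the 100 µM arrays lay on both sides of the DMSO arrays with the widest spread of any group, an SD of 0.61. At 72 h 15.7% of all probe sets were higher with 30 µM than in DMSO without overlap, and 7.88% were called higher. With 30 µM Bdh1 rose by 1.14 ± 0.27 log2 units or 2.20-fold (limma, adjusted p = 0.006), with a 95% interval from 0.58 to 1.70. With 100 µM the difference was -0.22 ± 0.27 (limma, adjusted p = 0.66) and its interval ran from -0.78 to 0.34. An increase as large as the one measured with 30 µM lies outside that interval.

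The dimmer Bdh1 probe set, 1374765_at, gave the same order of doses. In DMSO at 72 h it read 6.41, 5.94 and 5.44, with 30 µM EMD 7.47, 7.11 and 7.17, and with 100 µM 6.50, 5.96 and 5.88. The 30 µM arrays stood apart from the others at this time. It rose by 1.32 ± 0.27 log2 units or 2.50-fold with 30 µM (limma, adjusted p = 0.0024), and the difference with 100 µM was 0.19 ± 0.27 (adjusted p = 0.72). At 24 h the differences were 0.85 with 30 µM (adjusted p = 0.09, and 0.00015 with the replicate block) and -0.02 with 100 µM (adjusted p = 0.99). Of the brighter probe set, all 6 arrays at 30 µM, 8.89 to 9.41, stood above all 12 other arrays, 7.19 to 8.81. This separation was seen after the values were known, and 0.103% of all probe sets had it. In the dimmer one, 1 of the 12 other arrays, a 100 µM array at 24 h, exceeded the lowest 30 µM array.

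**Figure D1:**
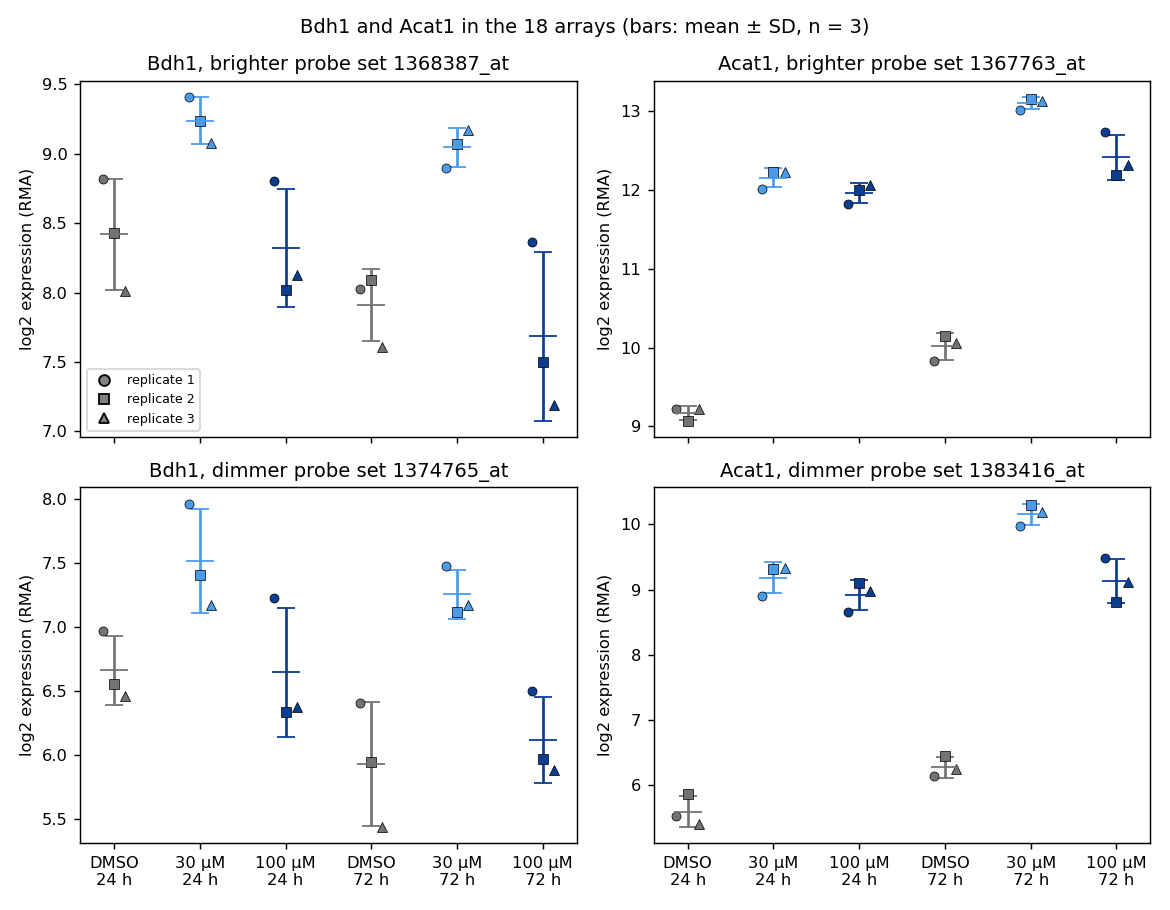
Log2 expression of Bdh1 (left) and Acat1 (right) in the 18 arrays, with the brighter probe set above and the dimmer one below; points are arrays, marked by replicate number, and bars are mean ± SD of 3 arrays. Bdh1 is highest in the 30 µM groups, 9.24 ± 0.17 at 24 h and 9.05 ± 0.14 at 72 h in the brighter probe set, while Acat1 is above DMSO at both doses.

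The doses were compared directly, since a call at one dose alone does not show that doses differ. At 24 h Bdh1 was 0.92 ± 0.27 log2 units lower with 100 than with 30 µM and the groups did not overlap, but no probe set was called in this comparison. By limma 0 of 31042 passed (0%), 1421 had an unadjusted p under 0.05, and that of Bdh1 was 0.0031 (adjusted p = 0.88). Without overlap, 5.79% of all probe sets were lower with 100 µM. With the replicate number as a block 3 probe sets passed, and the dimmer Bdh1 probe set was among the calls (-0.87, adjusted p = 0.027). Acat1 differed by -0.20 ± 0.13 at 24 h (limma, adjusted p = 1), with an interval from -0.46 to 0.07.

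At 72 h Bdh1 was lower with 100 than with 30 µM by 1.36 ± 0.27 log2 units, a 2.57-fold difference (limma, adjusted p = 0.013). The groups did not overlap, as was so for 9.45% of probe sets in this direction. At this time 1.85% of probe sets were called lower with 100 µM, and 963 were called in either direction. Under the replicate block that count was 1625. The Bdh1 call was lost without replicate 2 or 3 of the 30 µM group (adjusted p = 0.056 and 0.054) or of the 100 µM group (0.086 and 0.081). The dimmer probe set differed by -1.14 ± 0.27 (limma, adjusted p = 0.032), a call lost without any one of the 30 µM arrays or without replicate 2 or 3 of 100 µM (adjusted p up to 0.16). Acat1 was lower with 100 µM by 0.69 ± 0.13, or 1.61-fold (limma, adjusted p = 0.0089), and that call was lost without replicate 2 or 3 of the 100 µM group (adjusted p = 0.069 and 0.059). Its dimmer probe set differed by -1.02 ± 0.18 (limma, adjusted p = 0.006). Fitted on the compared arrays alone, neither the brighter (adjusted p = 0.085) nor the dimmer Acat1 probe set (0.06) passed. Acat1 with 100 µM nevertheless remained far above DMSO, where Bdh1 did not differ from DMSO beyond its spread.

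The mean log2 level of the hepatocyte markers at 72 h was also lowest with 100 µM EMD, 11.55 to 11.79 against 12.05 to 12.07 with 30 µM and 11.85 to 12.36 in DMSO. Against DMSO at 72 h, 5 of the 10 markers were called lower with 100 µM and 0 higher, with a median of -0.52, where 9.68% of all probe sets were called lower. With 30 µM 4 of them were called lower and 2 higher, with a median of -0.12, where 9.22% of all were called lower and 7.88% higher. The difference between the 3′ and 5′ actin control probe sets was 0.64 to 0.73 in DMSO at 72 h, 0.82 to 0.89 with 30 µM and 0.84 to 0.85 with 100 µM. The bile duct markers had means of 5.057 to 5.165 in DMSO at 72 h, 4.740 to 4.914 with 30 µM and 4.812 to 4.962 with 100 µM. For the endothelial markers they were 4.104 to 4.160, 4.257 to 4.336 and 4.246 to 4.271. The part of these values in the Bdh1 and Acat1 differences was not tested. Replicate 1 of the 100 µM group at 72 h lay farthest of all arrays from its group mean.

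With longer culture, Acat1 rose. Bdh1 did not pass the test in any treatment when all arrays were fitted with equal weight and without the replicate block. In DMSO, Acat1 was 0.84 ± 0.13 log2 units higher at 72 than at 24 h (limma, adjusted p = 0.00021), in a comparison where 11% of probe sets were called higher. With 30 µM EMD the rise was 0.94 ± 0.13 (adjusted p = 0.00011, 7.45% called higher), and with 100 µM it was 0.45 ± 0.13 (adjusted p = 0.027, 6.77% called higher). The rise at 100 µM was lost without replicate 1 or 2 of that dose at 24 h (adjusted p = 0.11 and 0.056) or replicate 1 at 72 h (adjusted p = 0.1). The dimmer Acat1 probe set rose by 0.69 in DMSO (adjusted p = 0.011, up to 0.051 without replicate 3 at 24 h or replicate 2 at 72 h) and by 0.97 with 30 µM (adjusted p = 0.0013). Its difference with 100 µM was 0.22 (adjusted p = 0.47).

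Bdh1 differed by -0.51 ± 0.27 between the times in DMSO (limma, adjusted p = 0.18), by -0.19 with 30 µM (adjusted p = 0.72) and by -0.63 with 100 µM (adjusted p = 0.14). The last passed with the replicate block (adjusted p = 0.037, and 0.0059 in the dimmer probe set). Without replicate 1 of the 100 µM group at 72 h, the difference with 100 µM became -0.97 (adjusted p = 0.012). The dimmer Bdh1 probe set differed by -0.73 in DMSO (adjusted p = 0.065), and was called under the replicate block (adjusted p = 0.00033) and without DMSO replicate 1 at 72 h (0.026) or 100 µM replicate 1 at 24 h (0.04). The actin 3′ to 5′ difference moved with time, from 1.22 to 1.39 at 24 h to 0.64 to 0.89 at 72 h, and its part was not tested.

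The responses to EMD were not found to differ between 24 and 72 h. For Bdh1 the response to 30 µM was 0.32 ± 0.38 larger at 72 h (limma interaction, adjusted p = 0.79), and that to 100 µM differed by -0.12 (adjusted p = 0.94). For Acat1 these values were 0.10 ± 0.18 (adjusted p = 0.88) and -0.39 ± 0.18 (adjusted p = 0.4). Of all probe sets, 0.941% were called for the 30 µM interaction and 0.693% for the 100 µM interaction. The call for Bdh1 with 30 µM at 72 h and its absence at 24 h are therefore not a shown difference between times.

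**Figure D2:**
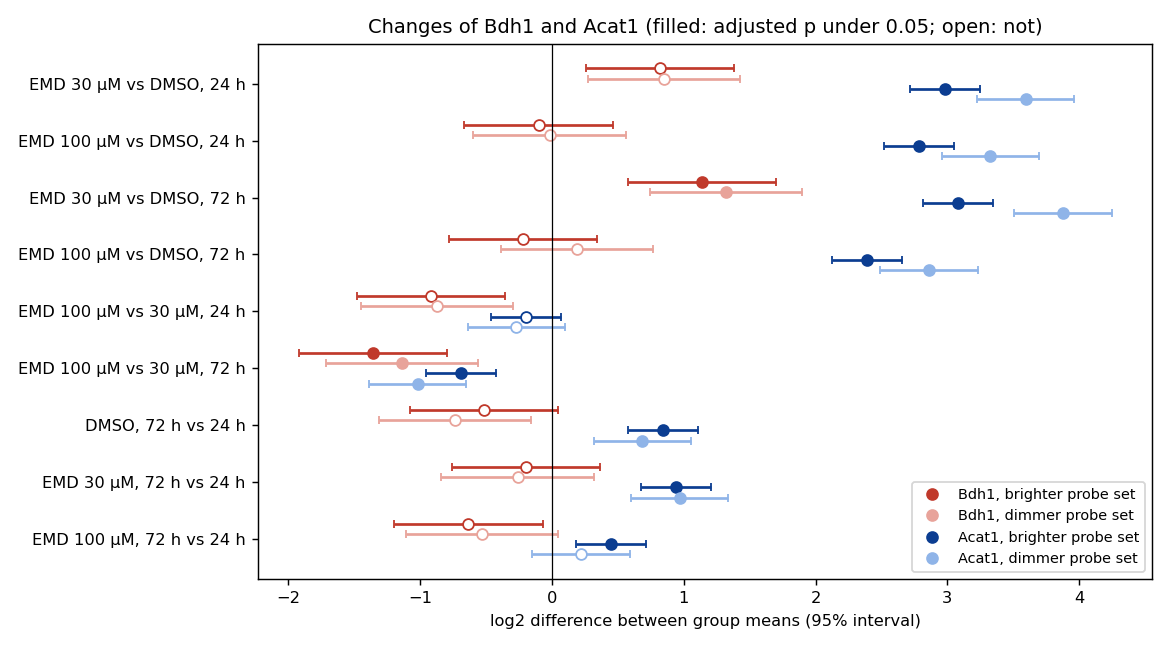
Log2 differences of Bdh1 (red) and Acat1 (blue) between group means in 9 comparisons, with 95% intervals from limma; dark points are the brighter and pale points the dimmer probe set, filled where the adjusted p was under 0.05. Acat1 lies between 2.39 and 3.08 in the comparisons of EMD with DMSO for the brighter probe set, and the Bdh1 intervals at 100 µM include 0.

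Ordered by level, Acat1 was lowest in DMSO at 24 h (9.17 ± 0.09, SD), then DMSO at 72 h (10.01 ± 0.17), 100 µM at 24 h (11.96 ± 0.12), 30 µM at 24 h (12.16 ± 0.12), 100 µM at 72 h (12.41 ± 0.28) and 30 µM at 72 h (13.10 ± 0.07). The arrays of 100 and 30 µM at 24 h overlapped, as did those of 30 µM at 24 h and 100 µM at 72 h. Bdh1 ran from 100 µM at 72 h (7.69 ± 0.61) through DMSO at 72 h (7.91 ± 0.26), 100 µM at 24 h (8.32 ± 0.42) and DMSO at 24 h (8.42 ± 0.40) to 30 µM at 72 h (9.05 ± 0.14) and 24 h (9.24 ± 0.17). Of these neighbours, only DMSO at 24 h and 30 µM at 72 h did not overlap. Both 30 µM groups thus headed the order of Bdh1, and all 4 EMD groups stood above both DMSO groups in that of Acat1.

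Across the 18 arrays, which fall into the 6 groups and are described with no test, the brighter probe sets of Bdh1 and Acat1 had a Pearson r of 0.31, and 0.25 after the group means were removed. For the other pairings of their probe sets r was 0.36 to 0.43, and -0.32 to 0.16 within groups, so the sign within groups depended on the probe set. The probe sets of a gene followed each other more closely, with r of 0.93 for Bdh1 and 0.99 for Acat1. The genes most like Acat1 were Mlycd, malonyl-CoA decarboxylase (r = 0.9974), Hadha, the α subunit of the mitochondrial trifunctional protein (0.995), Crat, carnitine acetyltransferase (0.9938), Nudt7, a peroxisomal CoA diphosphatase (0.9927), and Vwa8 (0.9926). Most opposite were Rab11fip5 (-0.9687) and Hal, histidine ammonia-lyase (-0.9608). The pattern of Bdh1 had less close matches, Slc22a18 (0.9128), Entpd8, a nucleotide-cleaving ectoenzyme (0.8935), C5, a complement component (0.8855), Slc22a7, an organic anion transporter (0.8712), and Gkap1 (0.8568). Hm13 (-0.8567) and Rps9, a ribosomal protein (-0.8518), were most opposite.

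Genes whose products supply acetyl-CoA rose in the same comparisons as Acat1. Of 19 genes of fatty acid entry and mitochondrial β-oxidation, 18 rose at either dose at 24 h. At 72 h 19 rose at the lower dose and 18 at the higher, and 0 fell in any of these comparisons. Over all probe sets, 3.35%, 3.06%, 7.88% and 7.42% were called higher in the same order, and 2.01%, 2.95%, 9.22% and 9.68% lower. The exception was Echs1, an enoyl-CoA hydratase, which did not pass the test in 3 of the 4 comparisons. Their median changes were 1.89, 1.80, 1.81 and 1.44 log2 units, where the median over all probe sets lay between -0.03 and 0.02. Cpt1b, a carnitine palmitoyltransferase that lets long-chain fatty acids into mitochondria, rose by 4.86 to 5.46 log2 units over these comparisons. Cpt1a, the main liver form, rose by 2.13 to 3.52, and Acaa2, the thiolase of medium and long chains, by 1.60 to 2.85. A second Acaa2 probe set, at a mean level of 7.88, rose more. Its rises were 3.33 and 3.69 with 30 and 100 µM at 24 h, and 2.90 and 3.27 at 72 h. Eci1, an isomerase for unsaturated fatty acids, rose by 1.68 to 3.44 in its brighter probe set, while a second one at a mean level of 4.45 was not called. Between the doses at 72 h, 5 of the 19 genes were called lower with 100 µM and 0 higher, the direction of Acat1 and Bdh1. Of all probe sets, 1.85% were called lower in this comparison. The 5 genes were Cpt1b, Acadm, Acads, Hadh and Echs1 (limma, adjusted p = 0.049, 0.037, 0.0061, 0.047 and 0.034). All but Cpt1b were singled out after their values were seen. These 5 calls were not recalculated with the replicate block, with arrays omitted or on the compared arrays alone.

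Acat1 belongs to the thiolases, of which 4 others were measured. All 4 rose with 30 µM at 72 h, and 3 in each of the other comparisons with DMSO, with median changes of 0.97, 1.21, 1.20 and 1.07 log2 units in the order of the β-oxidation medians. Of all probe sets, 3.35%, 3.06%, 7.88% and 7.42% were called higher in that order. Hadhb, the trifunctional protein's β subunit, rose by 1.31 to 1.47 log2 units. Scp2, a peroxisomal thiolase and sterol carrier, rose with 30 µM by 0.60 at both times, and its probe sets disagreed on 100 µM at 24 h. Acat2, the cytosolic acetoacetyl-CoA thiolase used in sterol synthesis, was called in 3 comparisons, with 0.82 to 1.08. Its call for 100 µM at 72 h was lost under 11 of the 18 omissions of an array (adjusted p up to 0.16). That for 100 µM at 24 h was lost without replicate 1 of that group or replicate 2 of DMSO (up to 0.12) or in a fit on the compared arrays alone (0.08), and that for 30 µM at 72 h without any of its 30 µM arrays or DMSO replicate 2 (up to 0.096).

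Of 12 measured genes of ketone body use, of the cytosolic branches and of export, 1 and 3 rose at the lower and higher dose at 24 h, and 2 and 3 rose at 72 h with 1 falling at each dose. Of all probe sets, 3.35%, 3.06%, 7.88% and 7.42% were called higher and 2.01%, 2.95%, 9.22% and 9.68% lower in this order. The medians were -0.002, 0.009, 0.06 and 0.14 log2 units, near those of all probe sets. Oxct1, the enzyme that lets tissues other than liver burn ketone bodies, fell by 1.43 ± 0.31 log2 units with 30 µM at 72 h (limma, adjusted p = 0.0034) and by 1.17 with 100 µM (adjusted p = 0.014). The latter call was lost without DMSO replicate 1 or 100 µM replicate 3 (adjusted p up to 0.087) and in a fit on the compared arrays alone (0.096). Slc16a1, a monocarboxylate transporter that carries ketone bodies, rose by 0.71 to 0.83 in all 4 comparisons and was chosen after its values were seen. A second Slc16a1 probe set, at a mean level of 4.29, was not called in any of them. Slc16a6, a transporter linked to ketone body export, rose by 1.18 with 100 µM at 24 h (adjusted p = 0.022), a call lost without replicate 1 or 2 of that group or replicate 2 of DMSO (adjusted p up to 0.12). Slc16a3, the lactate exporter, rose by 1.08 with 100 µM at 72 h (adjusted p = 0.0022).

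In isoleucine breakdown, where Acat1 has its other role, 11 further genes were measured. Of these 4 rose and 1 fell at each dose at 24 h, 7 rose and 2 fell with 30 µM at 72 h, and 5 rose and 1 fell with 100 µM. The shares called higher of all probe sets were 3.35%, 3.06%, 7.88% and 7.42%, and those called lower 2.01%, 2.95%, 9.22% and 9.68%. The medians were 0.32, 0.36, 0.49 and 0.24 log2 units. Ppm1k, the phosphatase that activates branched-chain keto acid dehydrogenase, rose by 1.85 to 2.14 log2 units, although neither of its other 2 probe sets was called at 24 h. Dbt, a core subunit of that enzyme, rose by 0.63 to 1.20, the call with 30 µM at 24 h being lost without replicate 1 of that group or replicate 3 of DMSO (adjusted p up to 0.062). A second Dbt probe set, at a mean level of 4.06, was not called at 24 h. Bcat1, which removes the amino group, fell by 2.10 and 1.89 at 24 h and by 1.37 with 30 µM at 72 h. A second Bcat1 probe set fell by 0.95 and 0.84 at 24 h, and was not called with 30 µM at 72 h (-0.41, limma, adjusted p = 0.051). Acadsb, the dehydrogenase of the branched chain, fell by 1.36 with 100 µM at 72 h (limma, adjusted p = 0.0025). The second gene that fell with 30 µM at 72 h was Bckdk, the kinase that inactivates branched-chain keto acid dehydrogenase, named after its values were seen.

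**Figure D3:**
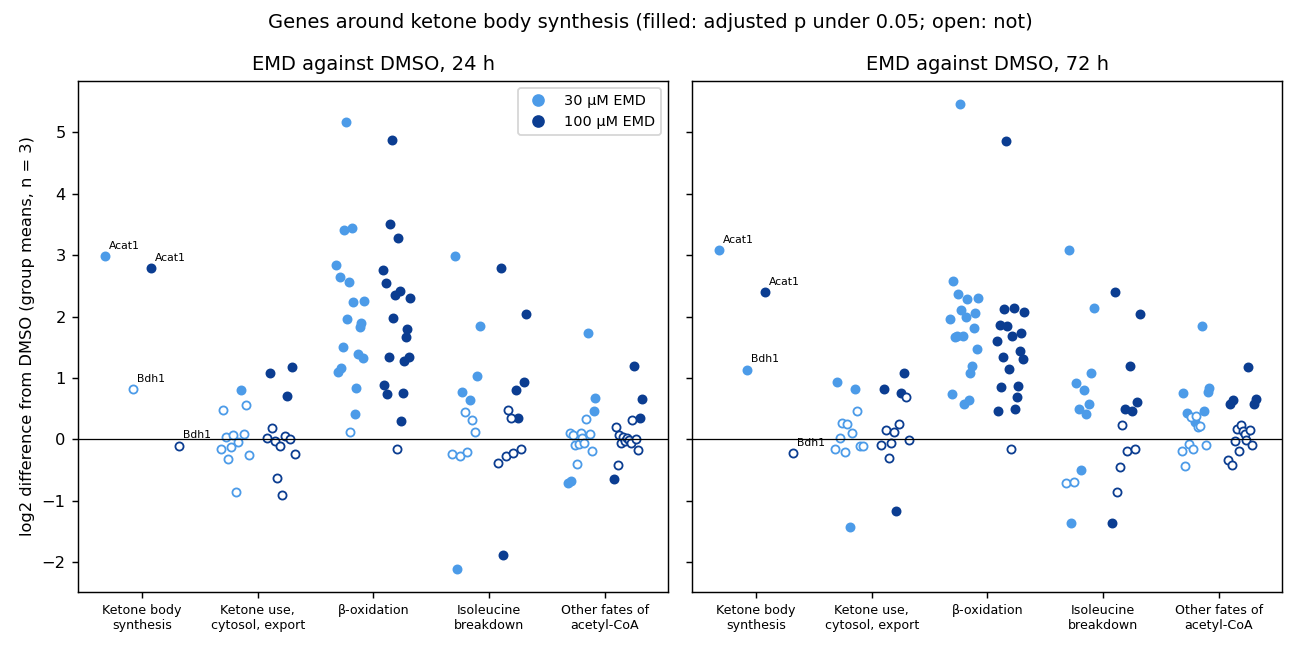
Log2 differences from DMSO of the measured genes of 5 lists, at 24 h (left) and 72 h (right), with 30 µM EMD pale and 100 µM dark; each point is a gene read through its brightest probe set, filled where the adjusted p was under 0.05. Nearly all of the 19 β-oxidation genes lie above 0 with Acat1, while the 12 genes of ketone use, cytosolic branches and export spread around 0.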

How the data were processed

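RNA of rat hepatocyte cultures was hybridised to Affymetrix rat genome arrays, 3 for each of the 6 groups read from the sample labels. The deposited values are log2 estimates that the authors made with RMA, which corrects background, equalises the distributions of the arrays and reduces each probe set to a single value, so that a shift of most genes is removed and low values are compressed. Its version was not stated in these sources. Array number limits the precision, the median SE of a difference being 0.116 log2 units, and RMA gives no detection call. All 18 columns were used.

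The table held 31099 probe sets, of which 57 controls were left out. Of the 31042 tested, GEO's platform annotation gave 20826 a single symbol, 436 several and 9780 none, and the gene IDs of 20758 were found in the GRCr8 gene table. The groups were fitted together in limma 3.58.1 (R 4.3.3). Two-sided p-values were adjusted by Benjamini-Hochberg over all probe sets, with a threshold of 0.05 and intervals at 95%. The study's methods name no test between groups for single genes. Comparisons of both doses share their DMSO arrays, and the dose and time comparisons share the treated arrays. Data with independent noise were simulated for 30 µM against DMSO at 72 h over 31042 probe sets. Each size of change was given to 50 random probe sets. Of changes of 0.5 log2 units 44% were recovered, 94% of changes of 1 and 100% of changes of 2 and 3, with 12 false calls. Far fewer probe sets were changed than the 5309 called in the data, so the p-value cutoff differs. The SE of Bdh1, 0.265, is above the median, so these rates are not those of Bdh1.

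Per the study's methods the cells of each animal received every treatment, but the labels do not tie replicate numbers to animals. Deviations from the group means correlated above 0.1 in 24 of 27 pairs of the same number, with a median of 0.354, and in all pairs of 6 of the 9 comparisons. These were both doses against DMSO at 72 h, the doses at either time, and the times in DMSO and with 30 µM. Since these comparisons link all groups, values with the replicate number as a block are given wherever they change a call of Bdh1 or Acat1. For the genes named from the lists, only the calls between EMD and DMSO made without the block were refitted with it. The counts of list genes and of markers were not refitted with it. Other p-values set aside the replicate number. They measure the spread between the cultures of a group, which may include differences between animals.

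The members and gene lists were chosen with earlier results of these data known. From each list up to 4 genes were named, those with the largest called change between EMD and DMSO, read through the brightest probe set. The 5 genes most like each member and the 2 most opposite were named by Pearson correlation. Alternatives were the replicate block, cyclic loess, equal array medians, a filter on dim probe sets, trended and robust moderation, array weights, a fit on the compared arrays alone, the mean of a gene's probe sets and the omission of each array.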

Additional observations from a re-analysis of the deposited data

How the results depend on the processing

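Of 572 recalculations of the 22 comparisons of the brighter Bdh1 and Acat1 probe sets, 545 kept direction and side of the threshold, and 13 comparisons did so throughout. The rise of Acat1 with EMD and that of Bdh1 with 30 µM at 72 h, 0.99 to 1.23 over omitted arrays, were among them. The replicate block, which changed no other call of these probe sets, gave a call to Bdh1 with 30 µM at 24 h (0.82, adjusted p = 0.015) and between the times with 100 µM (-0.63, adjusted p = 0.037). A fit on the compared arrays alone lost the dose differences at 72 h, -1.36 in Bdh1 (adjusted p = 0.074) and -0.69 in Acat1 (0.085), and the rise of Acat1 over time with 100 µM, 0.45 (0.11). The last was also lost with cyclic loess, 0.36 (0.11), and the mean of the probe sets, 0.33 (0.13). Array weights called Bdh1 between the times with 100 µM, -0.85 (0.0083), and the Acat1 interaction at 100 µM, -0.57 (0.049). The mean of the probe sets turned the Bdh1 interaction at 100 µM to 0.042. The cause of these changes was not tested.

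Over omitted arrays, Bdh1 ran from 0.62 to 1.02 with 30 µM at 24 h, called without replicate 1 of 100 µM at 72 h (adjusted p = 0.029). It ran from -0.34 to 0.10 with 100 µM at 24 h, -0.56 to 0.025 with 100 µM at 72 h, -1.70 to -1.11 between the doses at 72 h, -0.97 to -0.39 between the times with 100 µM and -0.46 to 0.13 for the 100 µM interaction. Acat1 ran from -0.85 to -0.58 between the doses at 72 h and from 0.29 to 0.56 between the times with 100 µM. The dimmer Bdh1 probe set ran from -0.31 to 0.14 with 100 µM at 24 h (0.0093 under cyclic loess), -0.059 to 0.43 at 72 h, and -0.041 to 0.50 for the interaction, so no sign holds for Bdh1 at 100 µM against DMSO or for its interaction.

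Of all probe sets, 963 were called between the doses at 72 h, 1625 with the block, 3336 with array weights, 141 in the fit on compared arrays and 141 to 2541 over omitted arrays. Between the doses at 24 h these were 0, 3, 9, and 0 to 2 over omitted arrays. With 100 µM against DMSO at 72 h they were 5308, 8192 with array weights and 3305 on compared arrays. For DMSO over time 6738 fell to 3997 on compared arrays. For 100 µM over time 3843 became 6849 with array weights and 2315 on compared arrays. The interactions had 292 at 30 µM (924 with the block, 641 with array weights) and 215 at 100 µM (534, 1090 and, on compared arrays, 76). With 1 array omitted, the 30 and 100 µM calls at 24 h, 1664 and 1867, went down to 1027 and 1207, those over time with 30 µM, 4221, to 2662, those over time with 100 µM to 2285, and the interactions ran from 123 to 475 and from 57 to 800.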

Other observations

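Of 14 measured regulators of ketogenesis, 5 rose in each comparison of EMD with DMSO, while 1 fell at each dose at 24 h, and 2 with 30 µM and 4 with 100 µM fell at 72 h. Of all probe sets, 3.35% and 3.06% were called higher with 30 and 100 µM at 24 h, and 2.01% and 2.95% lower. At 72 h 7.88% and 7.42% were called higher, and 9.22% and 9.68% lower. Pdk4, which inactivates pyruvate dehydrogenase, rose by 4.40 to 6.24 log2 units, and by 4.23 to 4.53 in a second probe set at a mean level of 9.42. Creb3l3, a liver transcription factor of the fasting response, rose by 1.02 to 2.18, and Sirt3, the mitochondrial deacetylase, by 1.26 to 1.78. Fgf21, a hepatic fasting hormone, fell by 1.36 with 100 µM at 72 h (limma, adjusted p = 0.0045), a call lost in a fit on the compared arrays alone (0.077). Ppara did not pass the test in any of these comparisons.

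Among other fates of acetyl-CoA, 16 genes were measured, of which 3 rose at either dose at 24 h, and 7 and 5 at the lower and higher dose at 72 h. At 24 h 2 fell at the lower dose and 1 at the higher, and 0 fell at 72 h, to be read against the shares of all probe sets above. Pc, pyruvate carboxylase, rose by 1.18 to 1.84 log2 units, and the succinyl-CoA ligase subunits Suclg1 and Sucla2 by 0.65 to 0.83 and by 0.34 to 0.77. A second, dimmer Sucla2 probe set was not called. The Sucla2 call with 100 µM at 24 h was lost without replicate 2 or 3 of either group (adjusted p up to 0.084) and in a fit on the compared arrays alone (0.092). Acacb, which makes the malonyl-CoA that holds back Cpt1, rose by 0.75 with 30 µM and 0.58 with 100 µM at 72 h (limma, adjusted p = 0.0015 and 0.01). The latter call was lost without DMSO replicate 2 (adjusted p = 0.056). The genes that fell, all named after their values were seen, were Acaca at both doses at 24 h and Acly with 30 µM at 24 h, which start fatty acid synthesis.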
